A study of Homo sapiens with 6 samples.

Results

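Antisense transcription across gene bodies was examined in HCT116 cells, a human colorectal carcinoma line, as reads on the strand opposite to an annotated gene. The deposited tables give each gene a sense line and, for most genes, an antisense line, and 465 antisense lines of 20496 with a gene length above 300 bp had a mean level above 0.5 RPKM over the 6 libraries. RPKM is the number of reads scaled to the counted length of the gene and to the mapped reads of the library, so levels can be compared between genes. The 465 gene bodies were chosen by this measured level, and their levels are therefore given below as a description. All 465 could be paired with the sense line of the same gene, and 7913 sense lines met the same length and level limits.

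RNA polymerase II copies a single strand of a gene into the sense transcript, and the opposite strand can be copied as well. Antisense transcripts can start from their own promoter inside or beyond the gene, from the back of an active promoter, or from a gene on the opposite strand whose polymerase runs past its polyadenylation site into the next gene. Some antisense RNAs regulate the gene they cross, and many are degraded soon after they are made, so labelling of newly made RNA shows them better than total RNA does.

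Newly made RNA had been labelled with bromouridine for 30 min in cells given 0.01% DMSO for 4 h (2 libraries), 10 nM siRNA against GSTO1 for 24 h (siGSTO1), 1 μM C1-27 for 4 h or for 24 h, or 10 μM C1-14 for 4 h, each treatment as 1 library. GSTO1 is glutathione S-transferase omega, the enzyme that C1-27 was made to inhibit. C1-14 is a compound of the same series, which the paper used as an inactive control. No library of a control siRNA and no DMSO library of 24 h was analysed here, so both 24 h treatments were set against DMSO at 4 h. Whether the DMSO libraries came from separate cultures is not stated, and p-values therefore measure only the spread between these samples.

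The antisense lines held 583700 to 1184191 counts per library, which was 2.85% to 3.96% of all sense and antisense counts. C1-14 had the highest share, but without the antisense line of UNC45B its share was 2.66%, beside 2.77% to 3.29% in the others. The 465 gene bodies took 30.1% to 32.3% of the antisense counts in 5 libraries and 53.3% in the C1-14 library, where the antisense line of UNC45B alone took 33.7%. Of the epithelial markers, EPCAM, KRT8, KRT18 and KRT19 were above 1 RPKM on the sense strand in all 6 libraries, and CDH1, VIL1, CLDN4 and CEACAM5 were not. The highest sense level of any haematopoietic marker was 0.0292 RPKM. Among fibroblast markers it was 0.313 RPKM (COL1A1), and among endothelial markers 0.374 RPKM (PECAM1). Epithelial CDH1 was at 0.321 to 0.617 RPKM, and VIL1 and CEACAM5 were at most 0.0261. The sense level of GSTO1 was 3.51 and 3.72 RPKM in the DMSO libraries, 2.70 with siGSTO1, 3.78 and 4.21 with C1-27 at 4 and 24 h, and 3.82 with C1-14. The siGSTO1 value was 0.747 of the DMSO mean and lay below both DMSO libraries, which was not past the threshold of edgeR's quasi-likelihood test (adjusted p = 0.392).

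Where a gene with antisense reads holds a named antisense RNA in a later annotation, the RNA's promoter can be shown. DEPDC1-AS1 and ARF4-AS1 are shown because the antisense signal of DEPDC1 and ARF4 fell with siGSTO1, and TMEM212-AS1 because TMEM212 had a high antisense level without an opposite-strand neighbour in the files. The sequences are from RefSeq on GRCh38.p14, a later build than the hg19 of the files, and run 5′ to 3′ from 250 bases before to 50 bases after the start of the RNA. They lie at chr1:68496426-68496725 on the plus strand, chr3:57597539-57597838 on the plus strand and chr3:171900691-171900990 on the minus strand. Capitals mark each CG dinucleotide.
DEPDC1-AS1: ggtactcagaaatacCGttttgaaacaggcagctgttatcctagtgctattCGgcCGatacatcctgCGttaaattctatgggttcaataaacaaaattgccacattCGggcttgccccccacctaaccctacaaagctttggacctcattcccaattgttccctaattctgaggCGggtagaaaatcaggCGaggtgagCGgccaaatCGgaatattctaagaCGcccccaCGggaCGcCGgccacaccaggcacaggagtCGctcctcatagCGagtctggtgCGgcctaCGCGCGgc
ARF4-AS1: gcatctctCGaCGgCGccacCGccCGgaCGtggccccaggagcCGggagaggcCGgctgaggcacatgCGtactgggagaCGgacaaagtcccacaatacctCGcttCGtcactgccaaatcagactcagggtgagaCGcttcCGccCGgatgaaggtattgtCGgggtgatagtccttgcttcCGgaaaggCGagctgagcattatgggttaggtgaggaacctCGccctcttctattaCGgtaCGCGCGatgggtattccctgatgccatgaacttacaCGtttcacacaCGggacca
TMEM212-AS1: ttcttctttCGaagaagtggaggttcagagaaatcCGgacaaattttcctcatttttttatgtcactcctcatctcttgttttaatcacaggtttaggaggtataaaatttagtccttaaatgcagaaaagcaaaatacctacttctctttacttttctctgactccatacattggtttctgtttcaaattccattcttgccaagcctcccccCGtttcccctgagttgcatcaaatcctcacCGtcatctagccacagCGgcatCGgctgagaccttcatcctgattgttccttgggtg

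The DEPDC1-AS1 window holds 19 CG dinucleotides, the ARF4-AS1 window 25 and the TMEM212-AS1 window 6, where the median of 35116 promoter windows of the same length is 14. TATAAA was searched on both strands and was present once in the TMEM212-AS1 window and absent from the other windows, while 11.5% of all windows hold it. CCAAT, also on both strands, was present once each for DEPDC1-AS1 and TMEM212-AS1 and absent for ARF4-AS1, while 34.6% of all windows hold it. In GENCODE release 29 on GRCh38, DEPDC1-AS1 starts inside DEPDC1, 545 bp from the start of that gene, and 546 bp of its 41952 bp lie inside it. ARF4-AS1 is placed likewise, 505 bp from the start of ARF4 with 506 bp of its 3213 bp inside. These models cover 2.37% of DEPDC1 and 1.88% of ARF4, and the files hold 1 count for a whole gene body, so the position of the antisense reads within the gene is unknown. TMEM212-AS1 (24389 bp) lies wholly inside the GENCODE model of TMEM212, of which it covers 25.6%. That model is longer than the 15970 bp gene body of the files, and TMEM212-AS1 starts 57391 bp from the start of the model. With its length of 24389 bp, TMEM212-AS1 thus lies beyond the first 15970 bp of the model. It would lie outside the counted gene body if that body shares the start of the model. Whether it does was not examined, as no coordinates were converted.

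The 465 gene bodies fell into 3 groups by their neighbours in the files' own annotation. In 142 the gene overlapped a gene on the opposite strand, in 200 there was no overlap but an opposite-strand gene ended toward the 3′ end of the gene within 10 kb, and in 123 there was neither. Among the 20031 other antisense lines above 300 bp the shares were 12.5%, 19.8% and 67.7%, against 30.5%, 43.0% and 26.5% of the 465. The overlapped bases themselves were not counted as antisense in the files, so that the reads of these 142 came from the remaining part of the gene. Counted length was shorter than gene length in 179 of the 465, and it was 300 bp or less in 3.

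The antisense level had a median of 0.817 RPKM over the 465 gene bodies, from 0.500 to 70.6 RPKM, and 13 of them were above 5 RPKM. The median of the other antisense lines was 0.00169 RPKM. By library, the median over the 465 ran from 0.700 RPKM with C1-14 to 0.879 RPKM in DMSO library 1, while DMSO library 2 gave 0.784. The sense level of the same genes had a median of 0.608 RPKM, and in 214 of 465 the sense level was at or below 0.5 RPKM. Antisense exceeded sense in all 6 libraries in 250 gene bodies and stayed below it in all 6 in 151, with 64 mixed. Just inside the limit lay BRIP1 at 0.5001, TCF7 at 0.5002 and RSPH4A at 0.5010 RPKM, and just outside lay THRSP at 0.4992, PTPLAD2 at 0.4987 and GSG1 at 0.4982 RPKM. Leaving any library out of the mean removed between 0 and 19 of the 465.

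**Figure D1:**
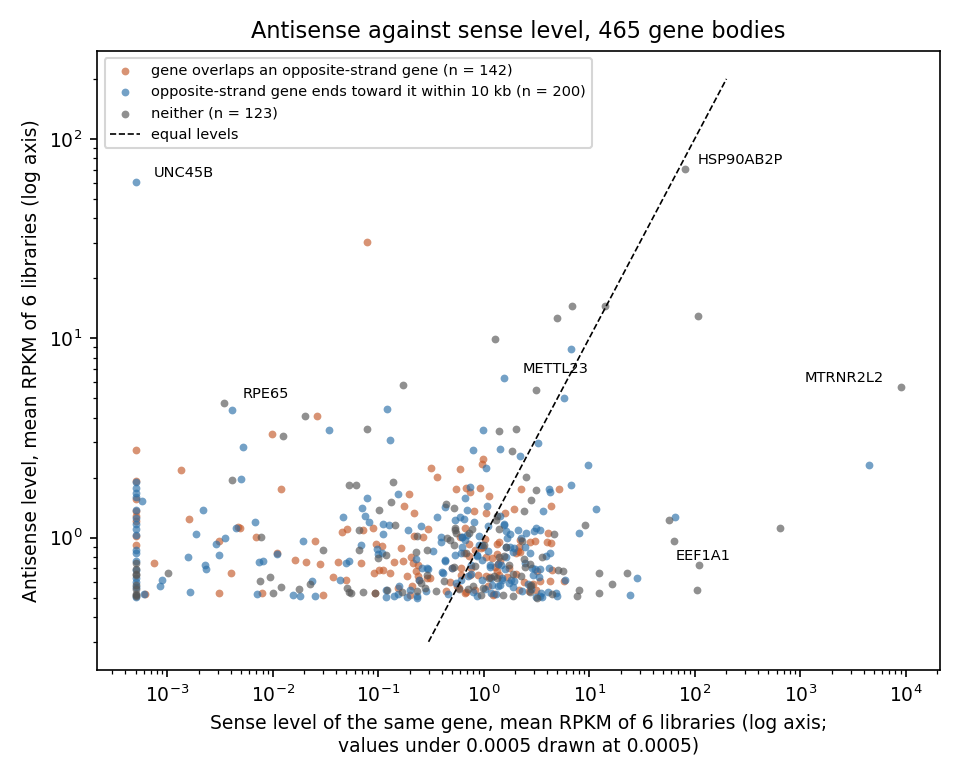
Antisense level (y axis) against the sense level of the same gene (x axis), both as the mean RPKM of 6 libraries on log axes, with a point for each of the 465 gene bodies, coloured by neighbour group, and a dashed line at equal levels. UNC45B and RPE65 sit far above the line with almost no sense reads, HSP90AB2P sits near it, and MTRNR2L2 and EEF1A1 sit far below it.

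Some reads of a stranded library can fall on the wrong strand, which would set a floor for antisense counts. Such reads were looked for in genes above 10 RPKM sense with no opposite-strand gene within 10 kb (105 to 145 genes per library). Their antisense counts had a median of 0.0748% to 0.111% of sense counts. The 5th percentile was 0% in every library, and the 95th percentile ran from 1.63% to 3.40%. Real antisense reads in these genes were not separated out, so these values are upper limits of the wrong-strand share. In 437 of the 465 gene bodies the antisense level was at least 10% of the sense level, or sense was at 0, in all 6 libraries. In 7 it stayed below the 95th percentile of these genes in every library: MTRNR2L1, MTRNR2L2, MTRNR2L4, MTRNR2L8 and MTRNR2L10, which are nuclear copies of mitochondrial ribosomal RNA, HNRNPA1, which encodes an RNA-binding protein of splicing, and EEF1A1, which encodes a translation elongation factor. MTRNR2L2 had 2.37 to 9.20 RPKM antisense beside 6533 to 10727 RPKM sense, so its antisense reads cannot be told apart from this floor. EEF1A1 had 0.656 to 0.842 RPKM antisense beside 77.1 to 161 RPKM sense. EEF1A1 was the only member of a list of 19 highly transcribed genes among the 465. The median antisense level of the 18 of that list with an antisense line above 300 bp was 0.135% of sense.

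HSP90AB2P, a transcribed pseudogene of the HSP90 beta gene, had the highest mean antisense level over the 6 libraries, with 72.8 and 68.4 RPKM in the DMSO libraries, 80.8 with siGSTO1, 67.5 and 72.2 with C1-27 at 4 and 24 h, and 61.8 with C1-14. Its sense level was 73.5 to 90.3 RPKM, and antisense was 0.808 to 0.925 of sense in every library. LOC646214 also had similar levels on both strands, with 13.9 to 16.0 RPKM antisense and 12.4 to 15.5 RPKM sense. LOC643406 had 13.1 to 15.6 RPKM antisense and 6.23 to 7.51 sense, and LOC100131257 had 11.1 to 14.1 antisense and 4.50 to 5.65 sense. RPL21, a ribosomal protein gene with many pseudogene copies, had 10.6 to 14.5 RPKM antisense over 409 counted bases of 5011. How reads that fit several copies were divided is not known. The levels of HSP90AB2P and RPL21, and of SPDYE7P given below, are therefore uncertain. Whether LOC646214, LOC643406 and LOC100131257 have copies was not examined. In the group with neither kind of neighbour, 21 of 103 gene bodies matched to GENCODE were pseudogenes (20.4%), against 3.87% of the other lines of that group.

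TMEM212, which encodes a transmembrane protein, had 4.59 and 5.81 RPKM antisense in DMSO, 5.62 with siGSTO1, 5.82 and 5.87 with C1-27 and 5.23 with C1-14, and its sense level was 2.95 to 3.47 RPKM. LOC728752 had 13.03 and 10.0 RPKM in DMSO and 7.99 to 12.4 in the treated libraries, beside 0.984 to 1.75 RPKM sense. SPDYE7P, a pseudogene of a family with many copies, had 4.88 to 7.23 RPKM antisense beside 0.147 to 0.186 RPKM sense. LOC286437 had 7.45 to 9.68 RPKM antisense beside 6.22 to 7.12 RPKM sense. For TMEM212 both C1-27 libraries lay slightly above both DMSO libraries, and siGSTO1 and C1-14 lay between them. For SPDYE7P, with 7.21 and 5.07 RPKM in DMSO, siGSTO1 lay slightly above this range (7.23) and C1-27 at 24 h below it (4.88). For LOC728752 and LOC286437 most treated libraries lay below both DMSO libraries, and none of the 4 gene bodies was called by edgeR in any treatment.

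LOC100506046 is an antisense RNA gene at GAS5. Its antisense strand is the sense strand of GAS5, the host gene of several small nucleolar RNAs, and 653 bases outside the 41 shared bases were counted. It had 32.6 and 32.5 RPKM in DMSO, 19.1 with siGSTO1, 39.3 and 29.4 with C1-27, and 28.8 with C1-14, while its own sense level stayed between 0.0474 and 0.105 RPKM. GAS5 itself had 71.1 and 73.6 RPKM in DMSO and 51.8 with siGSTO1. The siGSTO1 library was the lowest for both, and neither difference passed the edgeR test (adjusted p = 0.149 for LOC100506046 and 0.270 for GAS5).

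In 42 gene bodies no sense read was counted in either DMSO library. All 42 were thus tied at 100% of the counts of both strands pooled over DMSO. The naming rule took 5 of them, C22orf15, C1orf192, GPX2, RARRES1 and FAM150B, which do not rank above the others. C22orf15 had 0 sense counts of 556, which allows a sense share of up to 0.540%, and RARRES1, a retinoic acid response gene, had 0 of 4325, which allows up to 0.0694%. These limits cover counting error only. GPX2, a glutathione peroxidase gene of the gut, had 1.62 to 2.45 RPKM antisense. Its opposite-strand neighbour CHURC1 ends 3787 bp away and was at 2.89 to 3.51 RPKM. In GENCODE, though not in the files, CHURC1 overlaps GPX2. RARRES1 had 1.51 to 1.91 RPKM antisense, and its neighbour GFM1, 4536 bp away, 1.93 to 2.84 RPKM.

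The group in which an opposite-strand gene ended toward the gene was the largest. The gap was 1993 bp in the median. In DMSO the antisense level had a median of 0.872 RPKM and the neighbouring gene a median sense level of 2.43 RPKM, and in 165 of 200 the neighbour was the higher. Antisense was a median of 32.6% of the neighbour's level, with an interquartile range of 18.6% to 64.3%. This share was similar for gaps up to 1 kb (32.3%, 73 gene bodies), from 1 to 3 kb (36.6%, 58) and from 3 to 10 kb (31.4%, 69). A neighbour above 5 RPKM stood beside 55 of the 200 (27.5%), and beside 101 of the 3973 other antisense lines of this kind (2.54%). The median neighbour of those other lines was at 0.297 RPKM. Across the 195 gene bodies with a neighbour above 0, the log2 antisense level had a Pearson correlation of 0.19 and a Spearman correlation of 0.25 with the neighbour's log2 level, and −0.02 and 0.01 with the gene's own log2 sense level (177 gene bodies). These points share libraries, and some share a neighbour. The gene bodies were chosen by an antisense level above 0.5 RPKM, which cuts the range of this level. The correlations therefore describe the chosen gene bodies and cannot show how the levels relate over all genes.

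METTL23, a methyltransferase gene, had the highest antisense level in this group beside an expressed neighbour. It had 6.30 and 6.38 RPKM antisense in DMSO, 4.72 with siGSTO1, 7.39 and 7.33 with C1-27 at 4 and 24 h, and 5.61 with C1-14. SRSF2, a splicing factor gene that ends 234 bp away on the opposite strand, had 42.5 and 47.3, 32.4, 50.3 and 42.8, and 51.6 RPKM in the same order. The siGSTO1 library was the lowest for both genes, and the METTL23 antisense difference from DMSO did not pass the edgeR test (adjusted p = 0.392). METTL23 sense was 1.45 to 1.87 RPKM and was highest with siGSTO1.

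**Figure D2:**
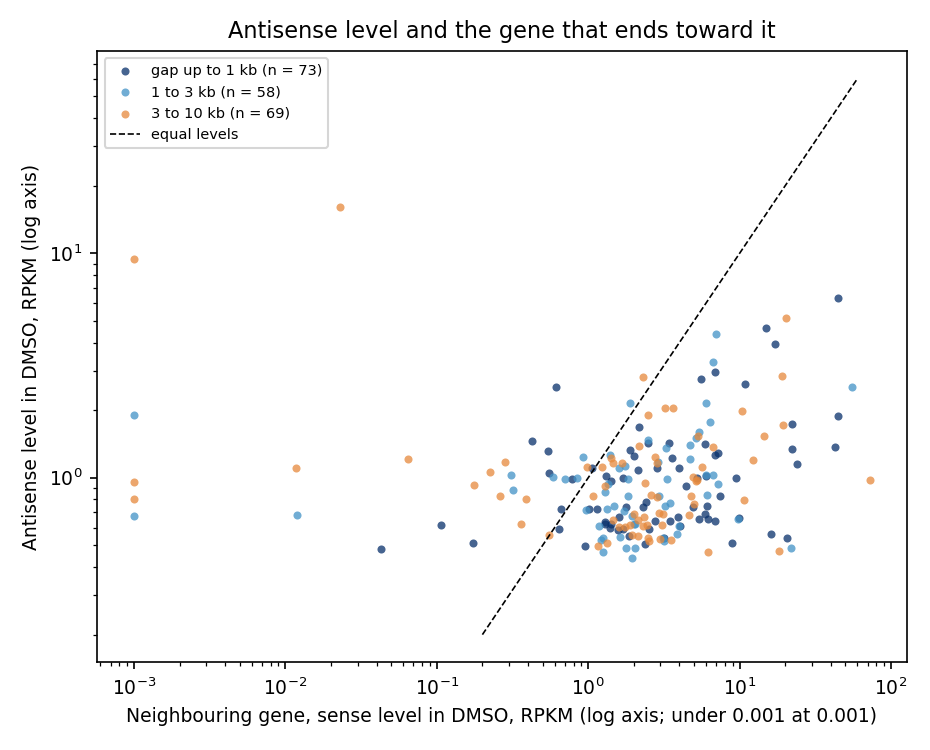
Antisense level in DMSO (y axis) against the DMSO sense level of the opposite-strand gene that ends toward it (x axis), both in RPKM on log axes, with a point for each of 200 gene bodies, coloured by the gap between the genes, and a dashed line at equal levels. In 165 of the 200 the neighbour is the higher, so most points lie to the right of the line, and the 3 gap classes overlap.

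GENCODE annotates more opposite-strand genes than the files do. Of the 427 gene bodies whose gene matched on the same strand, 35.4% had an opposite-strand gene in GENCODE that the files' annotation lacks, and so did 35.4% of the 19038 other lines matched. Some opposite-strand genes known to the files overlapped the gene in GENCODE but not in the files. This held for 136 of the 427 (31.9%) and for 15.1% of the others. Whether the model of the gene or that of its neighbour differed was not examined. In the group with an opposite-strand gene ending toward it, these shares were 46.1% and 31.4%.

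The treatments were compared with DMSO by fold change, on RPKM with no pseudocount, and by edgeR's quasi-likelihood test on the estimated counts of both strands. In such libraries of whole cultures, fewer cells that make an RNA and less of it per cell cannot be told apart. The DMSO libraries set the scale of the error. DMSO library 2 was 1.4-fold or more above library 1 in 30 of the 465 gene bodies (6.45%) and 1.4-fold or more below it in 96 (20.6%), where the sense lines gave 2.92% and 15.9%. The log2 ratio of the libraries had an SD of 0.47 over the 465.

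With siGSTO1, antisense was 1.4-fold or more above the DMSO mean in 39 gene bodies (8.39%) and below it in 56 (12.04%), where the sense lines gave 9.07% and 6.91%. Against each DMSO library alone the limit was passed upward by 18 and downward by 35 of 465 (sense lines 5.37% and 3.58%). With C1-27 for 4 h the counts against the DMSO mean were 7 higher and 27 lower (sense lines 0.442% and 2.67%), and against each DMSO library 1 and 7 (sense lines 0.139% and 0.303%). With C1-27 for 24 h they were 29 higher and 23 lower (sense lines 3.11% and 3.66%), and against each DMSO library 11 and 7 (sense lines 1.83% and 0.998%). With C1-14 they were 4 higher and 61 lower (sense lines 3.58% and 1.07%), and against each DMSO library 4 and 16 (sense lines 1.85% and 0.101%). Like for like with the 96 that were lower in DMSO library 2 than in library 1, the counts lower against DMSO library 1 alone were 83 with siGSTO1, 77 and 68 with C1-27 at 4 and 24 h, and 128 with C1-14. Against DMSO library 2 alone they were 56, 13, 17 and 24 in the same order.

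The median log2 change of the 465 was −0.05 with siGSTO1, 0.0003 and 0.02 with C1-27 at 4 and 24 h, and −0.17 with C1-14, beside sense lines at −0.01, −0.01, 0.03 and 0.004. The siGSTO1 median turned to 0.03 when DMSO library 1 was left out and was −0.16 when RPKM was rescaled with the TMM factors of the sense lines, which gave 26 higher and 88 lower. With C1-14, 372 of 465 gene bodies were below the DMSO mean, and the median was −0.12 and −0.24 against the DMSO libraries taken singly.

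**Figure D3:**
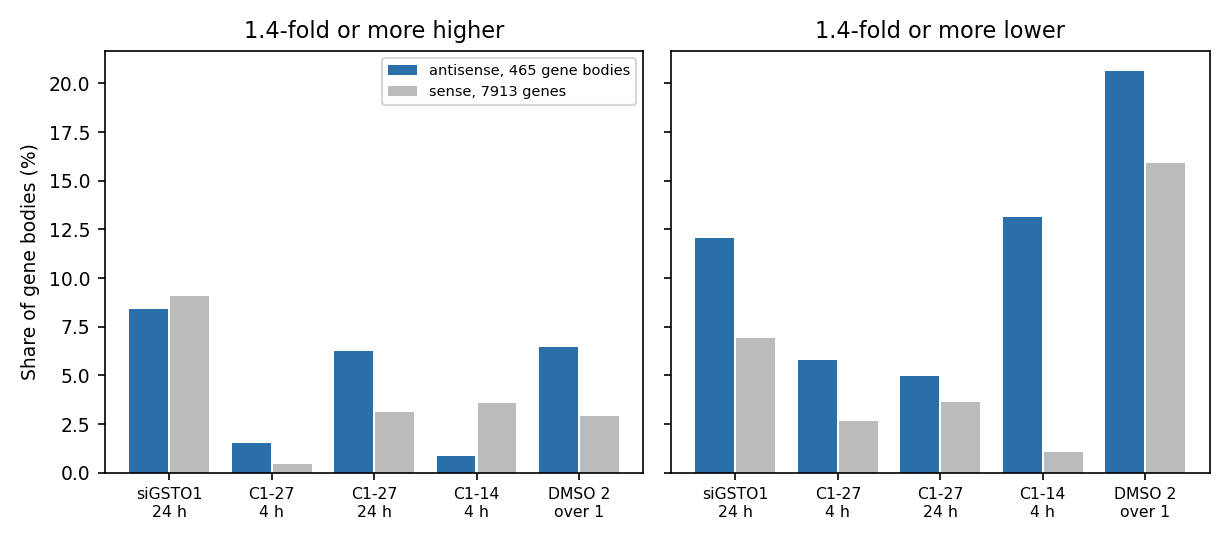
Share of gene bodies (y axis, %) that were 1.4-fold or more higher (left) or lower (right) than the DMSO mean in each treatment, and in DMSO library 2 against library 1, for the antisense strand of the 465 gene bodies and for 7913 sense lines. With siGSTO1 12.04% were lower and with C1-14 13.1%, and 20.6% were lower between the DMSO libraries.

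By the edgeR test, with Benjamini-Hochberg adjustment over 21508 lines of both strands, 462 of the 465 could be tested. With siGSTO1, 3 rose and 5 fell at an adjusted p under 0.05, where 2.42% of all lines rose and 0.981% fell, and of the 7077 antisense lines alone 0.735% rose and 0.664% fell. With C1-27 for 4 h none was called by edgeR (2 at an unadjusted p under 0.05, and 0 called by DESeq2), where 0.0139% of all lines rose and 0% fell (antisense lines 0.0141% and 0%). With C1-27 for 24 h 1 fell (0.126% of all lines rose and 0.0976% fell, and of antisense lines 0.0283% and 0.0565%). With C1-14 1 rose (0.102% of all lines rose and 0.00465% fell, and of antisense lines 0.0565% and 0%).

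UNC45B, which encodes a chaperone for muscle myosin, changed most. Its antisense strand had 15.8 and 16.3 RPKM in DMSO, 36.5 with siGSTO1, 19.1 and 14.0 with C1-27 at 4 and 24 h, and 264 with C1-14, which is 15304, 27591, 39799, 30643, 26846 and 379981 counts. Both raised libraries stood apart from the other 4. C1-14 was 16.5-fold above the DMSO mean of 16.0 ± 0.376 RPKM (SD, n = 2), with an edgeR log2 change of 4.06 ± 0.31 (SE) and adjusted p = 7.77e-36. The siGSTO1 library was 2.28-fold above it, with a log2 change of 1.07 ± 0.30 and adjusted p = 0.0155, and this call was lost with RLE size factors. Almost no sense read was seen (1 count in DMSO library 1 and 0 in the others). The gene spans 41529 bp on chromosome 17, from 33474836 to 33516364 in hg19, and its opposite-strand neighbour SLC35G3 was at or below 0.0456 RPKM. GENCODE has an antisense gene of 2770 bp, AC022916.4, inside UNC45B on GRCh38. The sense line of RPPH1, the RNA of ribonuclease P, was also highest with C1-14 and siGSTO1. It had 172 and 38.5 RPKM in DMSO, 293 with siGSTO1, 56.7 and 50.3 with C1-27 at 4 and 24 h, and 654 with C1-14. Unlike those of UNC45B, its DMSO libraries lay far apart, and both C1-27 libraries lay between them. C1-27 was 0.539 of the RPPH1 DMSO mean at 4 h and 0.478 at 24 h. HFM1, a helicase gene of meiosis, was highest with C1-14 and siGSTO1 as well on its sense strand. It had 0.179 and 0.124 RPKM in DMSO, 0.291 with siGSTO1 and 1.10 with C1-14. The part of what raised these lines in the UNC45B result was not tested.

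With siGSTO1, KLHL35 and C17orf66 also rose. KLHL35, of the kelch family, had 0.592 and 0.274 RPKM antisense in DMSO, 1.18 with siGSTO1, 0.387 and 0.694 with C1-27 and 0.229 with C1-14. It was 2.73-fold above the DMSO mean, and 2.00-fold above DMSO library 1 (edgeR log2 change 1.37 ± 0.42, adjusted p = 0.0398). C17orf66 had 0.625 and 0.313 RPKM in DMSO, 1.16 with siGSTO1, 0.462 and 0.825 with C1-27 and 0.354 with C1-14, and was 2.48-fold above the DMSO mean (log2 change 1.21 ± 0.37, adjusted p = 0.0392). In both genes the siGSTO1 library was the highest and DMSO library 1 lay above library 2. TAF15, the RNA-binding protein gene that ends 7721 bp from C17orf66, stayed at 5.98 to 6.56 RPKM. Neither gene was called by DESeq2, without a filter on low counts, or in the antisense lines fitted alone.

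RPE65, the retinoid isomerase gene of the visual cycle, fell with siGSTO1. Its antisense strand had 4.88 and 6.11 RPKM in DMSO, 2.12 with siGSTO1, 5.41 and 4.54 with C1-27 and 5.39 with C1-14. The siGSTO1 library was the lowest, at 0.386 of the DMSO mean (log2 change −1.49 ± 0.27, adjusted p = 8.29e-06). DEPDC1, a DEP domain gene of mitosis, lies on the same chromosome 1 with its antisense on the same strand, at 68939835 to 68962799 where RPE65 lies at 68894507 to 68915642 (hg19). DEPDC1 antisense had 0.840 and 1.22 RPKM in DMSO, 0.500 with siGSTO1, 1.12 and 0.929 with C1-27 and 1.17 with C1-14 (0.485 of the DMSO mean, log2 change −1.17 ± 0.33, adjusted p = 0.0188), a call lost with DESeq2. DEPDC1 sense was 2.14 to 2.52 RPKM in all 6 libraries and RPE65 sense at most 0.00607.

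GRPR, the gastrin-releasing peptide receptor gene, had 0.504 and 0.817 RPKM antisense in DMSO, 0.214 with siGSTO1, 0.715 and 0.337 with C1-27 at 4 and 24 h, and 0.725 with C1-14. Both 24 h libraries lay below both DMSO libraries. The siGSTO1 library was called (0.324 of the DMSO mean, log2 change −1.75 ± 0.37, adjusted p = 0.000271), and C1-27 at 24 h was not (0.511 of the DMSO mean, adjusted p = 0.430). No opposite-strand gene of the files lay within 10 kb.

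ARF4, a small GTPase gene of Golgi transport, had 0.977 and 1.34 RPKM antisense in DMSO, 0.497 with siGSTO1, 1.28 and 0.971 with C1-27 and 1.25 with C1-14. The siGSTO1 value was 0.428 of the DMSO mean (log2 change −1.34 ± 0.32, adjusted p = 0.00207), while ARF4 sense was 2.29 and 2.12 RPKM in DMSO and 3.08 with siGSTO1, with no call (adjusted p = 0.598). LPCAT3, a lysophospholipid acyltransferase gene, had 0.654 and 0.628 RPKM antisense in DMSO, 0.335 with siGSTO1 and 0.556 to 0.646 in the other libraries (log2 change −1.05 ± 0.33, adjusted p = 0.0417). The LPCAT3 call was lost with DESeq2 and without a filter on low counts. LPCAT3 sense was 1.25 and 1.22 RPKM in DMSO and 1.85 with siGSTO1 (adjusted p = 0.444). EMG1, a ribosome assembly gene that ends 181 bp from LPCAT3, was at 6.87 and 6.90 RPKM in DMSO and 5.28 with siGSTO1 (adjusted p = 0.496).

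ANKDD1A, an ankyrin repeat gene, was the call for C1-27 at 24 h. It had 1.24 and 0.603 RPKM antisense in DMSO, 1.52 with siGSTO1, 0.598 and 0.418 with C1-27 at 4 and 24 h, and 0.615 with C1-14. C1-27 at 24 h was 0.454 of the DMSO mean (log2 change −1.18 ± 0.29, adjusted p = 0.0305), but 0.694 of DMSO library 2 alone. The call was lost with DESeq2, without a filter on low counts and in the antisense lines fitted alone. The DMSO libraries differed more from each other than library 2 did from the treated one.

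In the group with an opposite-strand gene ending toward it, antisense and the neighbour could be followed together. With siGSTO1 antisense was 1.4-fold or more lower in 30 of these 200, and in 29 of the 30 the neighbouring gene was also below its DMSO mean, 8 of them by 1.4-fold or more, with a median of 0.798 of DMSO. Over all 179 gene bodies with a neighbour above 0.5 RPKM, 125 neighbours (69.8%) were below DMSO, with a median of 0.906. The gene's own sense level was below DMSO in 8 of the 30, with a median of 1.11-fold. Across 97 gene bodies with both the neighbour and the own sense line above 0.5 RPKM in DMSO, the log2 antisense change with siGSTO1 had a Pearson correlation of 0.45 and a Spearman correlation of 0.50 with the neighbour's change. With C1-27 these were 0.06 and 0.28 at 4 h and 0.22 and 0.45 at 24 h, and with C1-14 −0.19 and −0.05. With the own sense change the Pearson correlation ran from −0.11 to 0.12 over the 4 treatments and the Spearman correlation from −0.13 to −0.02. The points share libraries and DMSO values.

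With C1-14 antisense was 1.4-fold or more lower in 26 of the 200, and of the 22 with a neighbour above 0.5 RPKM 6 neighbours were below DMSO, with a median of 1.03-fold. Over all 179, 76 neighbours (42.5%) were below DMSO with C1-14, with a median of 1.02-fold. The difference between the treatments in this respect was not tested.

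Changes of the ratio of antisense to sense were tested with edgeR in a fit over both strands of 6125 genes, 368 of the 465 among them. With siGSTO1 the ratio fell in 3 and rose in 0 (0.539% of all genes fell and 0.31% rose). With C1-27 for 4 h 0 were called (1 at an unadjusted p under 0.05; 0% of all genes in either direction), for 24 h 0 (9 unadjusted; 0% rose and 0.0163% fell), and with C1-14 0 (6 unadjusted; 0.0163% rose and 0% fell). In all 3 genes called, the sense strand rose with siGSTO1, and the antisense strand was not called.

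FADS1, a fatty acid desaturase gene, had 1.70 and 1.10 RPKM antisense in DMSO and 1.01 with siGSTO1, while sense was 0.278 and 0.271 RPKM in DMSO, 1.09 with siGSTO1, 0.286 and 0.840 with C1-27 at 4 and 24 h and 0.411 with C1-14. Its antisense to sense ratio was 6.09 and 4.05 in DMSO and 0.922 with siGSTO1 (log2 change −2.42 ± 0.46, adjusted p = 0.00848). RASGRP1, which encodes an activator of Ras, kept 0.553 to 0.636 RPKM antisense in all 6 libraries. Its sense level was 0.0162 and 0.0150 RPKM in DMSO and 0.0755 with siGSTO1, so the ratio was 39.0 and 39.8 in DMSO and 8.04 with siGSTO1 (log2 change −2.29 ± 0.48, adjusted p = 0.0128). SDCBP, the gene of the adaptor protein syntenin, had 0.588 and 0.753 RPKM antisense in DMSO and 0.370 with siGSTO1, with sense at 0.677 and 0.739 against 1.58 RPKM. Its ratio was 0.869 and 1.02 in DMSO, 0.235 with siGSTO1 and 0.444 with C1-27 at 24 h (log2 change with siGSTO1 −2.01 ± 0.45, adjusted p = 0.0165). NSMAF, which ends 644 bp from SDCBP on the opposite strand, was at 1.53 and 1.67 RPKM in DMSO and 1.01 with siGSTO1 (adjusted p = 0.0742).

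**Figure D4:**
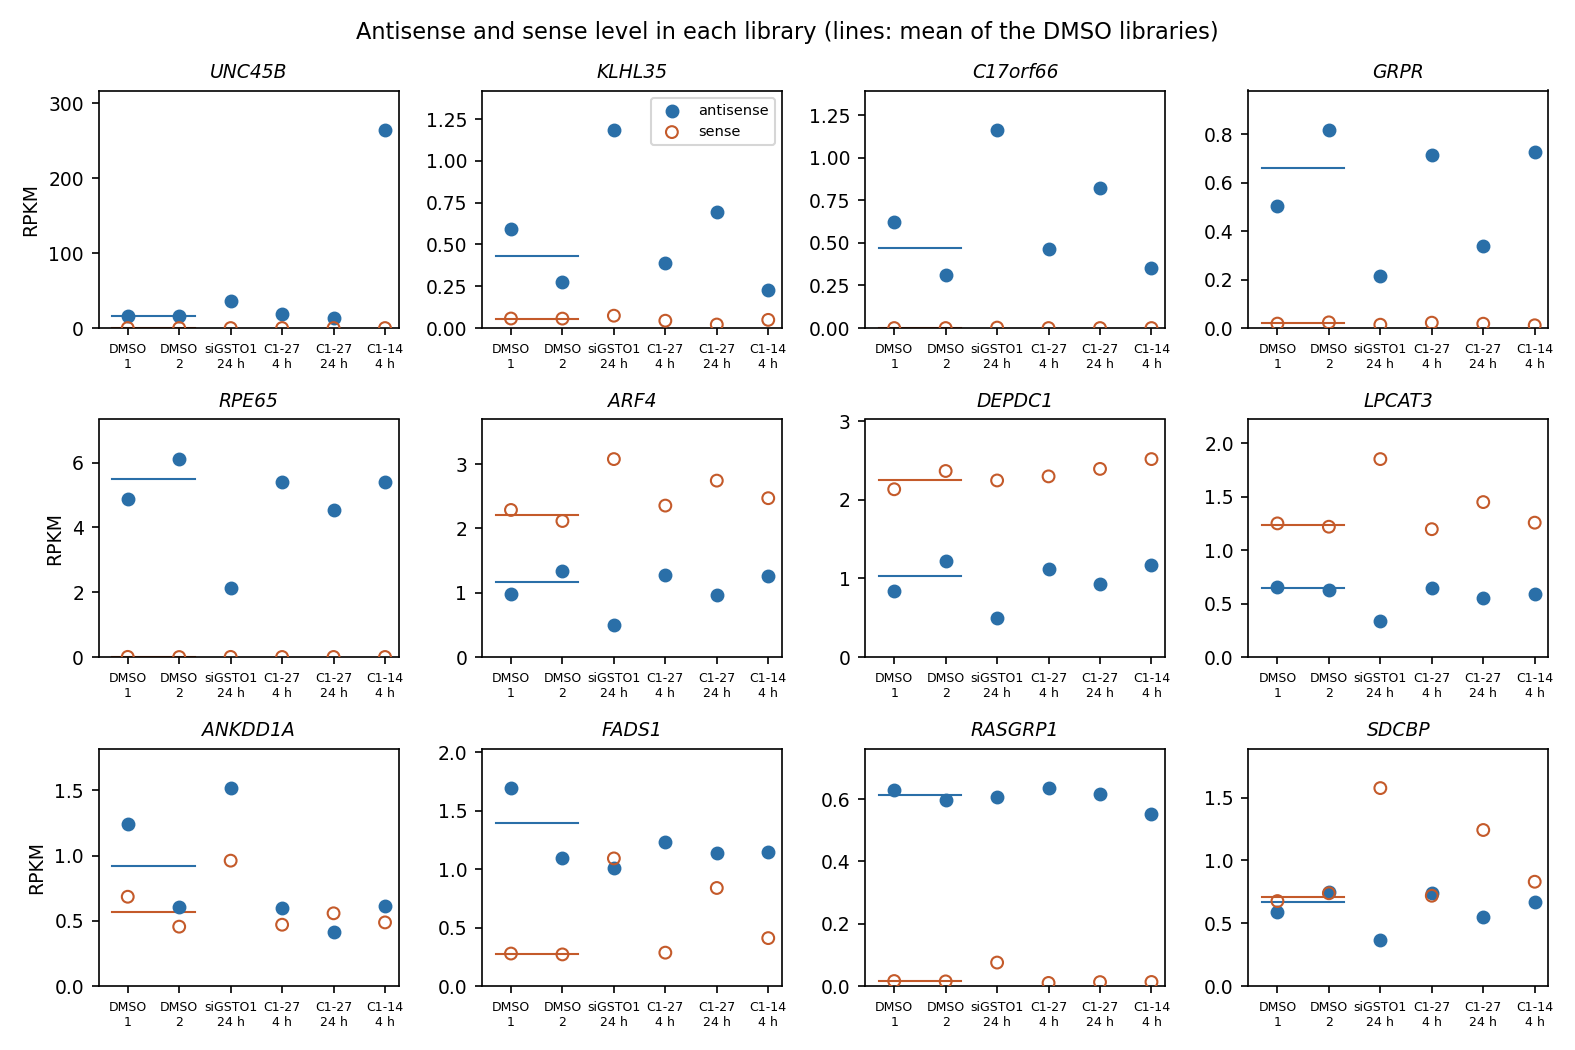
Level in RPKM (y axis, from 0) of the antisense strand (filled) and the sense strand (open) in each of the 6 libraries (x axis) for the 12 gene bodies whose antisense level or antisense to sense ratio passed an edgeR test, with lines at the mean of the DMSO libraries. The UNC45B point at 264 RPKM is the C1-14 library, and in ARF4, LPCAT3 and SDCBP the siGSTO1 library has the lowest antisense and the highest sense value.

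A list of 28 genes, among them stress-response, cell cycle and lipid genes, GSTO1 and GSTO2, was put together with the changes in these libraries known. GSTO1 and NQO1 of this list were among the 465. GSTO1 antisense was 1.22 and 1.44 RPKM in DMSO, 1.51 with siGSTO1, 1.33 and 1.44 with C1-27 and 1.23 with C1-14, a range that the DMSO libraries nearly span. NQO1, a quinone reductase gene under control of the antioxidant response, had 1.31 and 0.908 RPKM antisense in DMSO, 1.48 with siGSTO1, 0.870 and 1.17 with C1-27 and 0.821 with C1-14. NQO1 sense was 1.73 and 1.04 RPKM in DMSO, 2.56 with siGSTO1, and 2.25 and 3.42 with C1-27. Of the 28, 12 antisense lines could be tested and 0 were called by edgeR in any treatment. Of all antisense lines tested, 0.735% rose and 0.664% fell with siGSTO1, so few calls could appear among 12. Of the sense lines, 20 were called with siGSTO1, 2 and 11 with C1-27 at 4 and 24 h, and 0 with C1-14. Of all lines of both strands, 2.42% rose and 0.981% fell with siGSTO1, and 0.126% and 0.0976% with C1-27 at 24 h. As the list was chosen on these libraries, its sense calls are no independent evidence and are not set against the antisense strand.

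Of 43 genes of known sense and antisense pairs, 41 had an antisense line above 300 bp and 0 were among the 465. Their highest antisense level was 0.389 RPKM, for WDR83, which overlaps WDR83OS and DHPS. HIF1A, the hypoxia-inducible factor gene, was the only one called, with 22 tested. Its antisense strand had 0.0995 and 0.434 RPKM in DMSO, 0.0634 with siGSTO1, 0.369 and 0.0831 with C1-27 at 4 and 24 h, and 0.373 with C1-14. DMSO library 2 was far above library 1, and both 24 h libraries lay below library 1. The edgeR calls were with siGSTO1 and with C1-27 at 24 h, at 0.238 and 0.311 of the DMSO mean. They were made against both DMSO libraries together, which differed more from each other than library 1 did from either 24 h library.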

How the data were processed

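The libraries were Bru-seq libraries of HCT116 cells, sequenced on a strand-specific protocol. Per the labels, the authors aligned reads to hg19, and the submitters' processing notes name CASAVA 1.8.2, Bowtie 0.12.8, TopHat 1.4.1 and bedtools 2.16.2. Each deposited table gives, per gene and strand, an expected count (estimated counts, not always whole), a signal (the count divided by the counted length) and an RPKM value. The antisense lines leave out positions where another annotated gene lies. The expected counts as deposited were rounded for edgeR 4.0.16 (glmQLFit and glmQLFTest, R 4.3.3) with TMM factors from the sense lines and a filter of at least 10 counts in at least 2 libraries. The fit over both strands had 5 groups, 6 libraries, 1 residual degree of freedom and a common dispersion of 0.0424, so all spread came from the DMSO pair. The strand test compared antisense with sense changes in the same genes over 12 columns. The SE given after ± for a log2 change is the absolute log2 change divided by the square root of the test's F statistic. It holds no spread between treated libraries, as each treatment had 1 library. Scripts were tested on simulated data. Levels and fold changes were taken from the deposited RPKM, with no pseudocount, and a fold of 1.4 was the limit. Each library held 18112861 to 36841146 sense counts, and precision of low antisense lines is limited by counts. GENCODE release 29 and RefSeq tables, both on GRCh38, were joined by symbol only, and no coordinates were converted.

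Genes were named by rule: the 10 highest antisense levels, the 10 highest with no neighbour, and 5 tied at the highest antisense share. Up to 3 per treatment and direction were added past 1.4-fold against each DMSO library and an adjusted p under 0.05. The rule also took up to 3 per treatment and direction by change of ratio, those beside the level limit, and members of 3 lists. DEPDC1 and LPCAT3 lie outside this rule and were named after their values were seen, as the other calls of the same test, and so were GAS5, RPPH1 and HFM1. The members and lists were chosen with earlier results of these data known. Alternatives were DESeq2 1.42.0, RLE size factors, no filter, the antisense lines fitted alone, a pseudocount of 0.1 RPKM, a limit of 1 RPKM, rescaling by TMM, and each DMSO library left out. Columns of gene length, exon number and position were used as annotation. Antisense lines of genes of 300 bp or less entered no comparison.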

Additional observations from a re-analysis of the deposited data

Results flagged for a closer look

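Data outside the comparisons held a few lines above both DMSO libraries. Among antisense lines of genes of 300 bp or less, 1 had at least 10 counts and was 1.4-fold above both DMSO libraries with C1-27 for 24 h, the line of MIR4268, with 13 counts beside 1 and 7 in DMSO. Among the 48 lines that the files class as ambiguous, 2 met this limit with siGSTO1, 1 with C1-27 for 24 h and 2 with C1-14, all without a gene name, at levels of at most 0.0270 RPKM. The groups held 1 or 2 libraries, so no library could be tested as an outlier within its group.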

How the results depend on the processing

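Counts of gene bodies past 1.4-fold depended on the control library, the level limit and the scaling. With either DMSO library alone, siGSTO1 had 36 to 77 higher and 56 to 83 lower, C1-27 for 4 h 16 to 35 and 13 to 77, C1-27 for 24 h 46 to 50 and 17 to 68, and C1-14 8 to 18 and 24 to 128. The lower count was reached with DMSO library 2 and the higher with library 1 for every count lower. A limit of 1 RPKM left 166 gene bodies, of which siGSTO1 had 7 higher and 22 lower, the 4 h C1-27 library 0 and 10, the 24 h library 9 and 8, and C1-14 25 lower. A pseudocount of 0.1 RPKM gave 3 higher for C1-27 at 4 h and 18 at 24 h, and TMM rescaling 88 lower for siGSTO1. Requiring a counted length above 300 bp and 10 counts in 2 libraries, chosen after seeing the data, left 462 and moved no count by over 1.5 times.

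With siGSTO1, DESeq2 called 4 gene bodies (ARF4, GRPR, RPE65 and UNC45B) and edgeR without a filter 5. LPCAT3 was lost under both and DEPDC1 with DESeq2. The siGSTO1 call of UNC45B was lost with RLE size factors, at a log2 change of 1.04. The ANKDD1A call was lost with DESeq2, without a filter and in the antisense lines fitted alone, each giving 0 for C1-27 at 24 h. KLHL35 and C17orf66 were lost under those same 3 alternatives. The C1-14 call of UNC45B held in all 4 alternatives. The strand test of siGSTO1 called 10 when antisense columns had their own TMM factors, all lower, and 1 (FADS1) without a filter. No named call changed direction. The wrong-strand median of C1-27 at 24 h was 0.0818% with genes farther than 50 kb from an opposite-strand gene, in place of 0.107%. An overlap of at least 10% of the gene's length was met by 68 of the 142 overlapping gene bodies. The causes of these shifts were not tested. No paired analysis was possible because only DMSO carries more than a single replicate number and the treated groups hold 1 library each. Without either DMSO library no residual degree of freedom remains, so that test could not be run. DESeq2 gave no adjusted p for 107 gene bodies with siGSTO1 and 168 with C1-27 at 24 h.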

Other observations

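Over all 7077 antisense lines tested, the median log2 change with siGSTO1 was 0.26, and over the 465 gene bodies it was −0.05. With C1-14 both medians were below 0, at −0.20 and −0.17. By neighbour group, the C1-14 median was −0.16 for overlapping genes, −0.20 for genes with an opposite-strand gene ending toward them and −0.15 for the others. The siGSTO1 medians in the same order were −0.04, −0.09 and 0.03. With C1-27 for 24 h, 13 of 142 overlapping genes were higher by 1.4-fold and 2 lower, in the same order 13 and 7 of 200, and 3 and 14 of 123, where the sense lines gave 3.11% and 3.66%. Differences between the groups were not tested.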
